A study of Mus musculus with 30 samples.

Results

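The genes described are 10 components of the circadian clock, the feedback loop that gives most mammalian cells a daily rhythm of transcription. They were chosen by name: Ciart, Per1, Per2, Per3, Dbp, Nr1d1, Nr1d2, Arntl, Clock and Npas2. Probe sets that the platform annotation pairs with a single gene symbol measured 9 of the 10, among 19938 genes in all, and where a gene had several the one with the highest mean level was used. No level is given for Npas2. In the loop, CLOCK (or its relative NPAS2) pairs with BMAL1, the product of Arntl, and the pair binds E-box sequences to activate Per and Cry genes, Nr1d1, Nr1d2, Dbp and Ciart. PER and CRY proteins, and CIART, then repress that pair. NR1D1 and NR1D2 (REV-ERB alpha and beta) repress Arntl through sites they share with ROR receptors, and DBP activates genes that carry D-boxes. Lymphocytes and the stroma of lymphoid organs both hold such a clock, and several of its genes, Per1 above all, also respond within an hour or so to stress and hormone signals.

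The series compared spleen and lymph node of 15 mice on 30 arrays: 3 FVB/N control mice, 6 Tg26 mice without symptoms and 6 Tg26 mice with lymphoma. All mice were on the FVB/N background and were killed at 5 to 12 months of age. Tg26 mice are heterozygous for an HIV-1 provirus, pNL4-3 with part of gag-pol removed, that makes no infectious virus. The colony came from crosses between heterozygotes with skin lesions, and about 15% of Tg26 mice are said to develop lymphoma. Neither the cells that express the transgene nor the hour at which tissue was taken is given by the labels. Mice 1 to 3 of each state belong to a batch labelled A and mice 4 to 6 of each Tg26 state to a batch labelled B, so batch B has no FVB/N mouse. Nothing says what was processed together in a batch. Levels are log2 values, on which 1 unit is a 2-fold difference; the median gene had a mean level of 7.04.

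Some arrays stood apart before any comparison was made. The spleens of FVB/N mice 2 and 3 were nearly alike, with an SD of 0.151 for their log2 difference over all genes, and so were those of asymptomatic mice 1 to 3, at 0.165 to 0.182; other pairs of spleens of 1 state ranged from 0.263 upwards. The labels do not say whether alike spleens share RNA, so they may not be independent samples. Every n, SD and p-value that includes them counts them separately unless the text says that they were averaged. Tissue from outside the node was seen on 8 of the 15 node arrays, defined as a salivary gland, exocrine pancreas or adipose and muscle list more than 1 log2 unit above the lowest node array. These nodes came from FVB/N mice 2 and 3, asymptomatic mice 2 to 6 and lymphoma mouse 5. That definition was applied to nodes only. The mean of the exocrine pancreas list reached 13.42 among asymptomatic nodes, with a median of 6.14. That node array was kept in every fit unless the text says that it was left out. Among asymptomatic spleens the mean of the same list reached 8.66, with a median of 6.27. One lymphoma spleen, mouse 4, carries the disease code of the control mice in one label while its title and description say lymphoma, and it was kept with lymphoma. Mature B cell markers were present in each state: the mean level of 11 such genes was at least 8.78 on every array.

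Clock-related motifs near the starts of these genes are shown because the loop's factors bind E-box, D-box and ROR sites. Another reason is that Ciart and Per1 are the members that limma called between asymptomatic and FVB/N spleens. Binding was not measured, so a match alone does not make a window a target. RefSeq promoter windows (build GRCm38.p6, the 250 bases before each start, both strands) were listed for 9 of the 10 genes, in 13 windows. The motifs searched were the E-box CACGTG, the D-box TTATGTAA or TTACGTAA, the ROR and REV-ERB core TAGGTCA or TGGGTCA, and the cyclic AMP element TGACGTCA; no 2 of them overlap in the stretches shown. The share of all 32851 windows with a match was 6.02% for the E-box, 0.931% for the D-box, 5.38% for the ROR and REV-ERB core and 1.55% for the cyclic AMP element. Ciart had 3 E-boxes, 116, 58 and 44 bases before its start. Per1 had 1 E-box, 166 bases before one of its starts, and Per3 had 2 D-boxes, 205 and 158 bases before its start. The windows of Dbp, Nr1d1, Nr1d2, Arntl, Clock and Npas2 held none of these letters. Below, 5′ to 3′ on the gene's strand with motifs in capitals, are 221 bases for Ciart (chr3:95882258-95882478, minus strand), 30 bases for Per1 (chr11:69098771-69098800, plus strand) and 208 bases for Per3 (chr4:151044708-151044915, minus strand).
Ciart: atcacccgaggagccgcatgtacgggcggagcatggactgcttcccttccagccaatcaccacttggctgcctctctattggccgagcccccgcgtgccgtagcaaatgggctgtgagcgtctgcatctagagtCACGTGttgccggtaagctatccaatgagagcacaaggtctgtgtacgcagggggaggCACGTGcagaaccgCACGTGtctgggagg
Per1: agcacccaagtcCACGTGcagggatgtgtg
Per3: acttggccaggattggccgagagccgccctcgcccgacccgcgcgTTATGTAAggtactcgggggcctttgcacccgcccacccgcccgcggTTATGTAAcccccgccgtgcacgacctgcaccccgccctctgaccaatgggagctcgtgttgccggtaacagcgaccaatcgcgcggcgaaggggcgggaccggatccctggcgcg

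**Figure D1:**
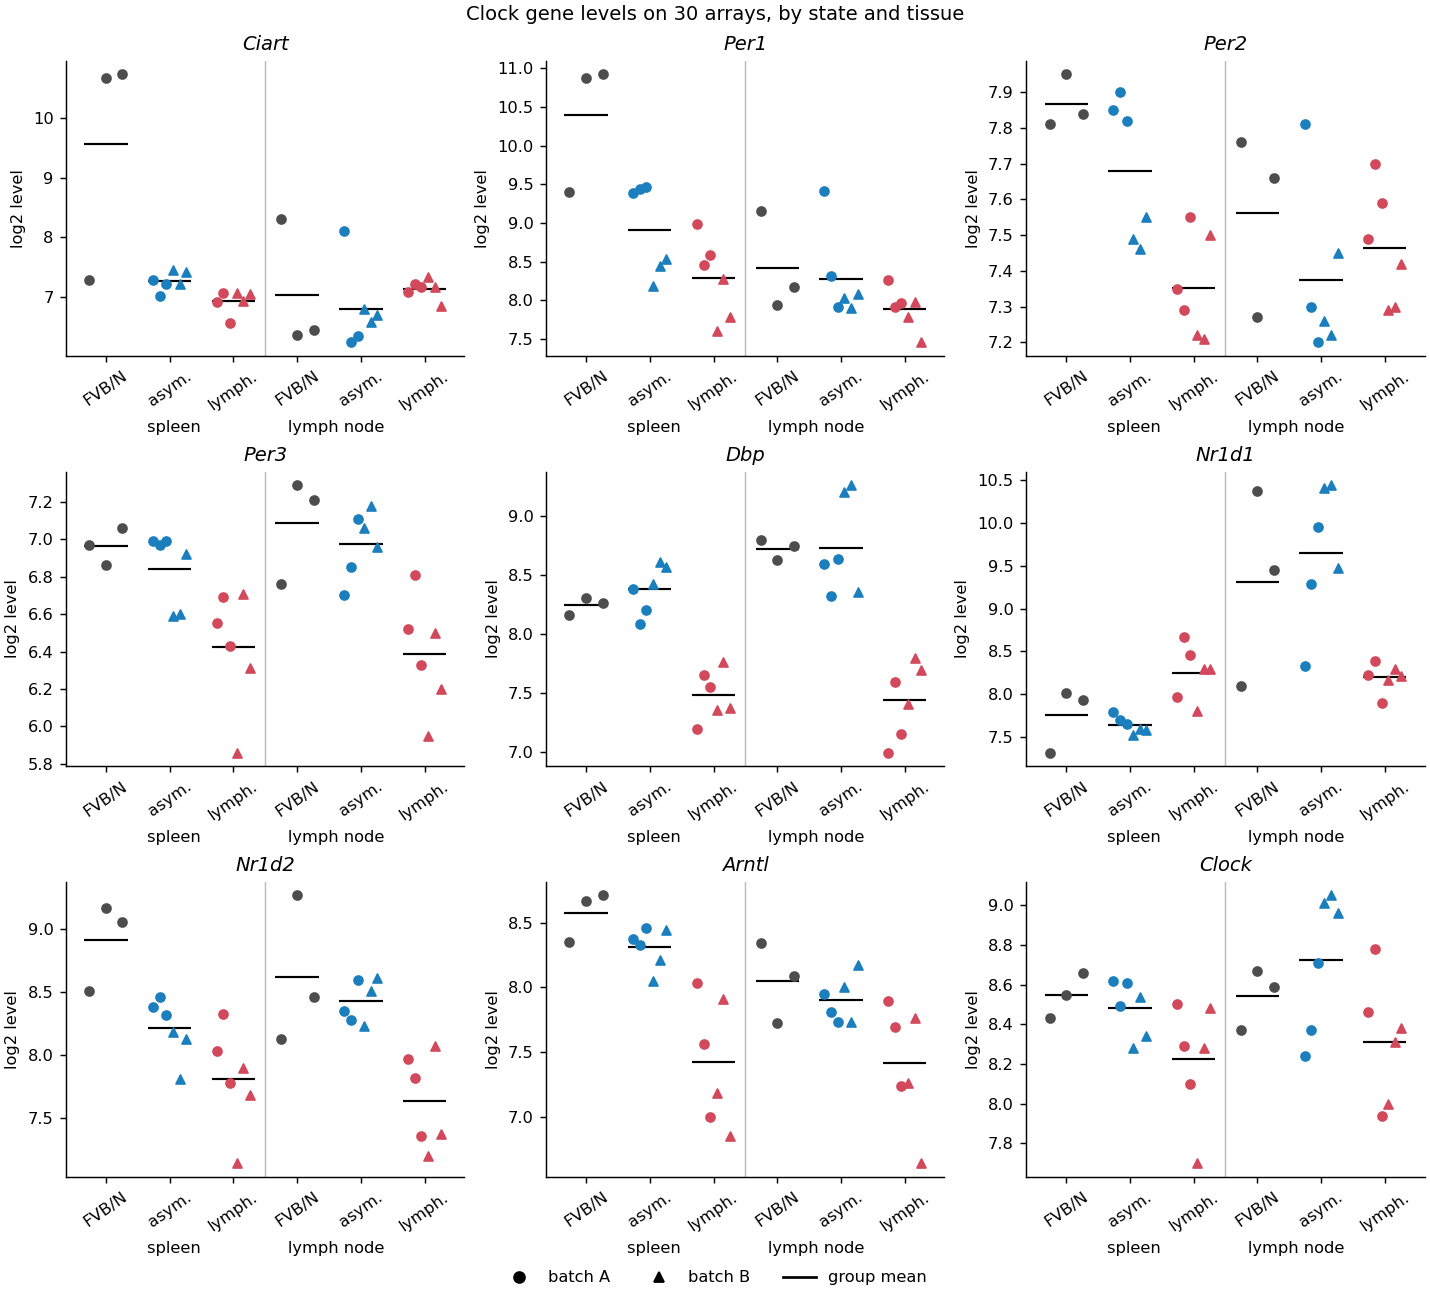
Log2 level of the 9 measured clock genes on each of the 30 arrays, by tissue and state (FVB/N; asym., asymptomatic Tg26; lymph., Tg26 with lymphoma), with circles for batch A, triangles for batch B and a line at each group mean. Dbp is lower on every lymphoma array than on any other array of the same tissue, and Ciart and Per1 are highest in 2 FVB/N spleens.

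Dbp, the output gene whose protein drives D-box genes, fell with lymphoma in both tissues. In spleen its level ran from 8.08 to 8.61 in asymptomatic mice, with a median of 8.40, and from 7.19 to 7.76 in mice with lymphoma, with a median of 7.46. In lymph node it ran from 8.32 to 9.26, median 8.61, and from 6.99 to 7.79, median 7.50. The groups did not overlap in either tissue. The group means were 8.37 ± 0.20 and 7.48 ± 0.21 in spleen (SD, n = 6 each) and 8.73 ± 0.41 and 7.44 ± 0.32 in lymph node (SD, n = 6 each). The limma fit used 6 surrogate variables, estimated from the arrays to take up unlabelled variation. They were not kept unrelated to state or tissue, so they can also take up part of a labelled difference. That fit put the Dbp difference at -0.92 (SE 0.13, adjusted p = 2.74e-05) in spleen and -1.43 (SE 0.15, adjusted p = 1.76e-07) in lymph node. It was past the threshold in all 25 alternatives run in spleen, from -1.09 to -0.74, and in all 27 run in lymph node, from -1.56 to -1.06. Without surrogate variables, the difference within batch A was -0.76 in spleen and -1.27 in lymph node, and within batch B -1.04 and -1.31. The test of whether the fall differed between the tissues gave -0.51 (lymph node minus spleen, SE 0.18, adjusted p = 0.236). In RNA from whole organs, fewer cells of a type and less RNA per cell cannot be told apart.

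FVB/N mice had Dbp levels close to those of asymptomatic mice. The 3 control spleens read 8.16, 8.30 and 8.26, and the 3 control nodes 8.79, 8.62 and 8.74. All lay above every lymphoma array of the same tissue and within the asymptomatic range of that tissue. In limma, asymptomatic minus FVB/N was -0.10 in spleen (adjusted p = 0.993) and -0.06 in lymph node (adjusted p = 0.893), while lymphoma minus FVB/N was -1.02 (SE 0.16, adjusted p = 0.000143) and -1.49 (SE 0.18, adjusted p = 2.52e-06). The lymphoma difference in spleen no longer passed without the spleens of FVB/N mice 2 and 3, which leaves 1 control (-0.91, adjusted p = 0.06). Ordered by mean, Dbp stood at 8.73 in asymptomatic node, 8.72 in FVB/N node, 8.37 in asymptomatic spleen, 8.24 in FVB/N spleen, 7.48 in lymphoma spleen and 7.44 in lymphoma node. Of these neighbours, FVB/N node and asymptomatic spleen, and FVB/N spleen and lymphoma spleen, lay apart by more than the sum of their SDs, with no overlap, and the other 3 neighbouring pairs overlapped. Dbp in node was higher than in spleen in asymptomatic mice in the fit (spleen minus node -0.55, SE 0.15, adjusted p = 0.0311). On the plain means it was -0.35 with overlapping groups (adjusted p = 0.156). The call was lost without any one of FVB/N mice 1 to 3, asymptomatic mice 2, 4 and 6 or lymphoma mice 3, 5 and 6 (-0.64 to -0.48, adjusted p from 0.0592 to 0.106).

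The cell make-up of the organs moved with Dbp. The mean level of 13 measured T lineage genes of 16 listed was 9.51 to 9.78 in asymptomatic spleens and 6.09 to 7.34 in lymphoma spleens, and 8.60 to 10.54 against 6.31 to 7.69 in nodes; all 13 fell in both tissues. Of 12 B precursor genes 11 rose in both tissues; their mean level was at most 7.29 in asymptomatic spleens and 7.77 in asymptomatic nodes, and at least 9.58 and 9.95 with lymphoma. Of the proliferation genes, 14 of 15 rose in spleen and 15 of 15 in lymph node. Of 11 mature B cell genes, 7 fell and 0 rose in spleen, and 7 fell and 3 rose in node. Other lists moved more in node than in spleen. In node 9 of 14 endothelial and stromal genes and 11 of 18 adipose and muscle genes fell, and 8 of 12 neutrophil genes rose. The same counts in spleen were 0, 4 and 1. No gene of these lists was called the other way in either organ. Of all genes 8.58% rose and 7.25% fell in spleen, and 11.6% rose and 12.5% fell in node. Their part in the fall of Dbp was not tested.

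Against this background the other members gave few calls between lymphoma and asymptomatic mice. In spleen 1 of 9 clock genes passed, Dbp, where 15.8% of all genes passed and 7.25% fell. In lymph node 2 of 9 passed, Dbp and Nr1d1, both lower, where 24.1% of all genes passed and 12.5% fell. The median fitted difference of the 9 was -0.25 in spleen and -0.27 in node, beside -0.03 and -0.02 for all genes. The surrogate variables took 33.9% to 79.2% of the members' variance within groups, with a median of 59.7% over all genes, and without them the counts were 4 in spleen (15.8% of all genes passed and 8.17% fell) and 5 in lymph node (27.3% passed and 14.4% fell). Those calls were Dbp, Arntl, Per2 and Per3 in spleen and Dbp, Nr1d1, Nr1d2, Per3 and Clock in node, all lower in lymphoma. In a fit that had no surrogate variables but took batch as a term and mouse as a random block, 4 passed in spleen and 6 in node, the same genes with Arntl added in node (-0.49, adjusted p = 0.0405). The share of all genes that passed with mouse as a random block is not given, here or below. Counts from that fit thus have no background to be set against.

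**Figure D2:**
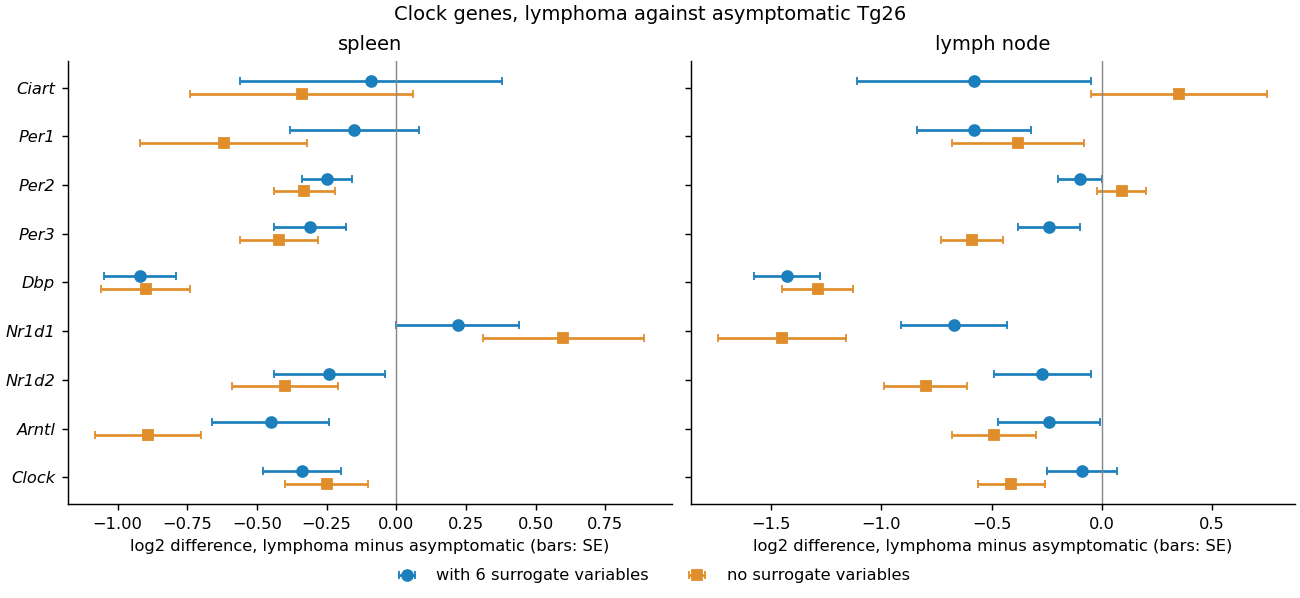
Difference in log2 level between lymphoma and asymptomatic Tg26 mice for each clock gene in spleen and lymph node, from limma with 6 surrogate variables (circles) and with none (squares); bars are 1 SE. Dbp lies at -0.92 and -1.43 with surrogate variables and at -0.90 and -1.29 without, while Arntl in spleen, at -0.45 and -0.89, and Nr1d1 in node, at -0.67 and -1.45, shift between the fits.

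Arntl, which encodes the activator BMAL1, was lower in lymphoma spleens on the plain levels. It ran from 8.05 to 8.46 in asymptomatic spleens, median 8.35, and from 6.85 to 8.03 in lymphoma spleens, median 7.37. The groups did not overlap, as for 9.54% of all genes. The difference was -0.89 with no surrogate variables (SE 0.19, adjusted p = 0.00119) and -0.45 with them (SE 0.21, adjusted p = 0.157). Without surrogate variables it was -0.86 within batch A (adjusted p = 0.0192) and -0.92 within batch B (adjusted p = 0.0866). In lymph node the asymptomatic range was 7.73 to 8.17 and the lymphoma range 6.64 to 7.89, which overlap, and neither fit passed (-0.24, adjusted p = 0.527; -0.49 without surrogate variables, adjusted p = 0.0584). Lymphoma mouse 6 had the lowest Arntl of its group in both organs, 6.85 and 6.64, and lymphoma mouse 1 the highest, 8.03 and 7.89.

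Clock, the partner of BMAL1, differed little in spleen: 8.28 to 8.62 in asymptomatic mice and 7.70 to 8.50 with lymphoma (-0.34, SE 0.14, adjusted p = 0.124). In node the ranges were 8.24 to 9.05 and 7.94 to 8.78 (-0.09, SE 0.16, adjusted p = 0.745). The asymptomatic nodes of batch B, at 9.01, 9.05 and 8.96, were the 3 highest of all 15 nodes. Without surrogate variables the node difference was -0.41 (adjusted p = 0.043). Also without them, batch B alone gave -0.78 in node (adjusted p = 0.0125), and batch A gave -0.05 (adjusted p = 0.913).

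Nr1d1 and Nr1d2 encode the REV-ERB repressors. Nr1d1 in spleen was 7.53 to 7.79 in asymptomatic mice, median 7.63, and 7.81 to 8.67 with lymphoma, median 8.29. The lymphoma spleens were all higher, but neither fit passed (0.22, SE 0.22, adjusted p = 0.557; 0.60 without surrogate variables, adjusted p = 0.189). In lymph node it was 8.33 to 10.44 in asymptomatic mice, median 9.71, against 7.90 to 8.39 with lymphoma, median 8.21. There the fit passed narrowly, at -0.67 (SE 0.24, adjusted p = 0.043), and the plain difference was -1.45 (SE 0.29, adjusted p = 0.000318). The difference between the tissues was -0.90 (lymph node minus spleen, SE 0.30, adjusted p = 0.184), and -2.05 without surrogate variables (adjusted p = 0.00584). In that test of the tissues limma called 0 of the 9 genes, where 0.572% of all genes passed. An unadjusted p under 0.05 was found for 2 of the 9 and for 2341 of all 19938 genes. Without surrogate variables 1 of the 9 was called, where 2.99% of all genes passed. Spleen and node come from the same mice, and with mouse as a random block 2 were called, Nr1d1 (-2.05, adjusted p = 0.00225) and Per2 (0.42, adjusted p = 0.048).

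Markers of other tissue and cell types varied among the nodes along with Nr1d1, and their part in its difference was not tested. The 2 lowest nodes outside the lymphoma group, FVB/N mouse 1 at 8.10 and asymptomatic mouse 1 at 8.33, were the only nodes outside that group without neighbouring-organ transcripts. The other FVB/N nodes read 10.37 and 9.45 and the other asymptomatic nodes 9.28, 9.95, 10.40, 10.44 and 9.47. The mean level of 14 endothelial and stromal genes was 7.30 and 7.85 in the first 2 nodes, 8.63 to 9.35 in the other 7, and 6.41 to 7.42 in the lymphoma nodes. The mean level of 13 macrophage genes followed the same split: 7.48 and 7.61 in the first 2 nodes, up to 9.95 in the other 7, and 6.87 to 8.08 with lymphoma. Without the 8 nodes that carried such transcripts the Nr1d1 difference was -0.17 (adjusted p = 0.78). That value compares the lymphoma nodes with 1 asymptomatic node, the one with the lowest Nr1d1 of its group, and takes its spread from the other groups. With batch and the 3 organ lists as terms it was -0.02 (adjusted p = 0.985). The call was also lost without any one of FVB/N mice 2 and 3, asymptomatic mice 1, 4, 5 and 6 and lymphoma mice 1 to 6, where it ranged from -0.85 to -0.30 (adjusted p from 0.0517 to 0.483). Dbp read 8.79 and 8.59 in the same 2 nodes, and its difference without those 8 nodes, against the same single asymptomatic node, was -1.43 (adjusted p = 0.000669).

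**Figure D3:**
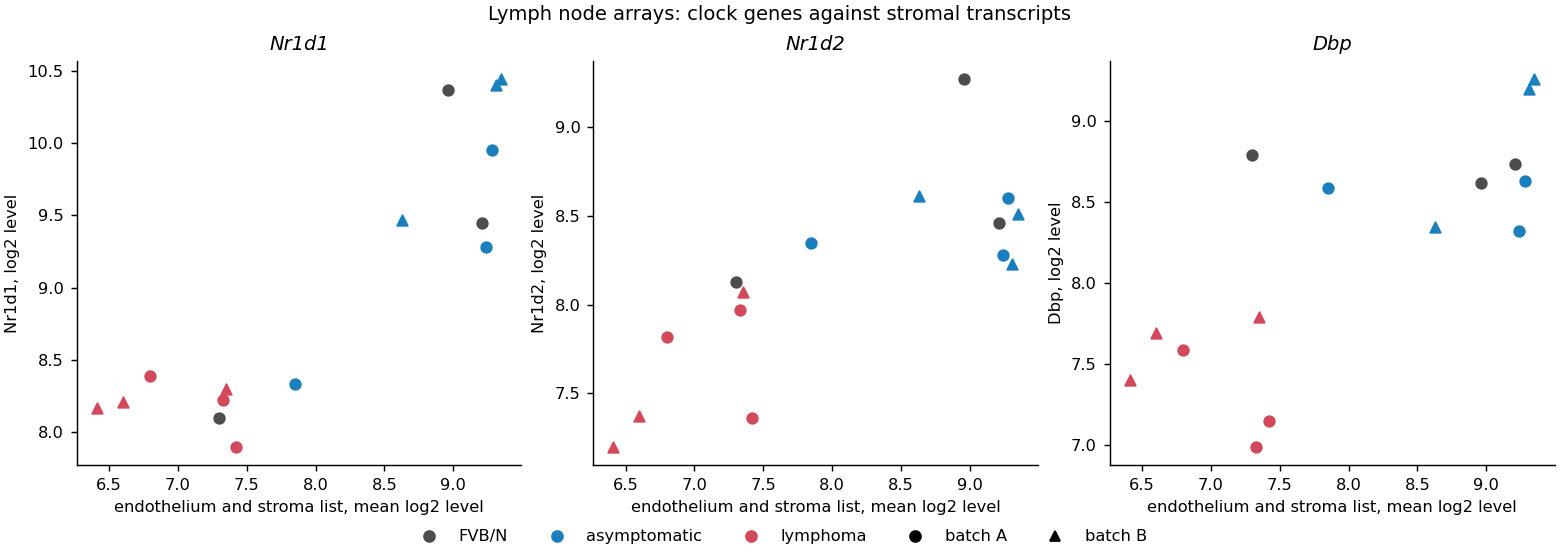
Log2 level of Nr1d1, Nr1d2 and Dbp on the 15 lymph node arrays against the mean log2 level of 14 endothelial and stromal genes, coloured by state with circles for batch A and triangles for batch B. FVB/N mouse 1 and asymptomatic mouse 1, at 7.30 and 7.85 on the horizontal axis, sit with the lymphoma nodes for Nr1d1 (8.10 and 8.33) and above them for Dbp (8.79 and 8.59).

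Nr1d2 in node was 8.23 to 8.61 in asymptomatic mice and 7.20 to 8.07 with lymphoma, without overlap, as for 10.8% of all genes. The plain difference was -0.80 (SE 0.19, adjusted p = 0.00199) and the fitted one -0.27 (SE 0.22, adjusted p = 0.43). In spleen it was 7.81 to 8.46 and 7.14 to 8.33, with overlap (-0.24, SE 0.20, adjusted p = 0.471). In asymptomatic mice Nr1d1 was lower in every spleen than in any node, with means of 7.64 and 9.65 (spleen minus node -0.96, SE 0.24, adjusted p = 0.0212), and 2 of the 9 clock genes passed there, Nr1d1 and Dbp, both lower in spleen, where 5.62% of all genes passed and 3.36% were lower. Without surrogate variables 1 passed, Nr1d1 (-2.00, adjusted p = 2e-05), where 12% of all genes did. The Nr1d1 call was lost without the nodes that held other organs' transcripts (-0.74, adjusted p = 0.212), and without FVB/N mouse 3, asymptomatic mouse 4 or 6, or lymphoma mouse 3 or 5 (-0.94 to -0.66, adjusted p from 0.0506 to 0.143). Nr1d2 gave 0.11 (SE 0.22, adjusted p = 0.86) there and passed between the organs in no state.

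Of the repressor genes Per2 and Per3, Per2 in spleen was 7.46 to 7.90 in asymptomatic mice and 7.21 to 7.55 with lymphoma (-0.25, SE 0.09, adjusted p = 0.0565). In node its ranges were 7.20 to 7.81 and 7.29 to 7.70 (-0.10, SE 0.10, adjusted p = 0.532). Per3, whose promoter window holds both D-boxes shown above, was 6.59 to 6.99 against 5.86 to 6.71 in spleen (-0.31, SE 0.13, adjusted p = 0.106). In node it was 6.70 to 7.18 against 5.95 to 6.81 (-0.24, SE 0.14, adjusted p = 0.248). The plain differences of Per3, -0.42 in spleen (adjusted p = 0.043) and -0.59 in node (adjusted p = 0.00203), passed, as did Per2 in spleen (-0.33, adjusted p = 0.0461).

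Ciart and Per1 were highest in 2 control spleens. Ciart, a repressor of the CLOCK and BMAL1 pair, was measured by 2 probe sets, with mean levels of 7.29 and 7.14. The first is used here, and the array levels of the other are not given. Ciart read 7.28 in the spleen of FVB/N mouse 1 and 10.67 and 10.73 in those of mice 2 and 3. Asymptomatic spleens lay between 7.01 and 7.45 and lymphoma spleens between 6.57 and 7.06. Per1 read 9.40, 10.88 and 10.92 in the control spleens, 8.19 to 9.46 in asymptomatic and 7.61 to 8.99 in lymphoma spleens. FVB/N mouse 1 was thus at the asymptomatic level for both genes, while mice 2 and 3 were more than 3 log2 units higher for Ciart. These are the 2 spleens that were nearly alike over all genes.

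In limma 2 of 9 clock genes, Ciart and Per1, passed between asymptomatic and FVB/N spleens, where 0.617% of all genes did and 0.311% were lower in asymptomatic mice. Nr1d2 did not pass (-0.59, SE 0.19, adjusted p = 0.272). It was the 1 member whose groups did not overlap, as for 8.03% of all genes. Ciart differed by -2.29 (SE 0.47, adjusted p = 0.0221) and Per1 by -1.02 (SE 0.23, adjusted p = 0.0366). Neither passed without those 2 spleens, where Ciart differed by 0.02 and Per1 by -0.03 (adjusted p = 1 for both). Since the 2 were left out for their high values, this compares 1 control spleen, already seen at the asymptomatic level, with a spread taken from the other groups. Averaged to 1 sample, as were the 3 alike asymptomatic spleens, they gave -1.61 (adjusted p = 0.878) and -0.86 (adjusted p = 0.77). With no surrogate variables Ciart gave -2.29 (adjusted p = 0.0519) and Per1 -1.49 (adjusted p = 0.13), so that 0 of 9 passed, where 0.115% of all genes did, and 0 passed with mouse as a random block. Within batch A, also without surrogate variables, the differences were -2.38 (adjusted p = 0.722) and -0.97 (adjusted p = 1). Ciart was lost without FVB/N mouse 2 or 3 or asymptomatic mouse 1, 2 or 3 (-2.34 to -1.70, adjusted p from 0.0662 to 0.354) and was -3.45 without FVB/N mouse 1; Per1 was lost without 12 of the 15 mice (all but FVB/N mouse 1 and lymphoma mice 2 and 3), with adjusted p from 0.0509 to 0.514.

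Between lymphoma and FVB/N spleens 4 of 9 clock genes passed, all lower in lymphoma, where 12.3% of all genes passed and 5.25% fell. Beside Dbp they were Ciart (-2.39, SE 0.58, adjusted p = 0.00699), Per1 (-1.17, SE 0.28, adjusted p = 0.00688) and Nr1d2 (-0.83, SE 0.24, adjusted p = 0.0231). Nr1d2 was 8.51, 9.17 and 9.06 in the 3 control spleens and 7.14 to 8.33 in lymphoma. Without the spleens of FVB/N mice 2 and 3, which leaves 1 control, these 3 differences were -0.13, -0.16 and -0.20 (adjusted p = 0.931, 0.854 and 0.855). Leaving out FVB/N mouse 3 alone ended all 3 calls (-1.80, -0.89 and -0.66; adjusted p = 0.0658, 0.0682 and 0.133), and Nr1d2 was also lost without FVB/N mouse 2 or lymphoma mouse 1 or 2 (-0.70 to -0.64). Without surrogate variables 7 of 9 passed, all lower, where 14.2% of all genes passed and 8.09% fell. This comparison shares its control spleens with the one between asymptomatic and FVB/N mice.

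Immediate early and stress genes stood high in the same 2 spleens. Atf3, a stress-induced transcription factor, was 11.08 and 11.01 there, 8.81 in FVB/N mouse 1 and 7.02 to 8.30 in asymptomatic spleens. Nr4a1, an orphan nuclear receptor of the early response, was 11.50 and 11.52 against 9.73 and 8.13 to 9.65, and Hspa1a, an inducible heat shock protein, 10.06 and 10.16 against 9.17 and 7.37 to 7.75. Nr4a1 and Hspa1a were chosen for naming after their values were seen. The clock partners Bhlhe40 (10.35 and 10.41 against 8.44) and Nfil3 (8.13 and 8.06 against 7.38) followed the same order. The mean level of 15 immediate early genes was 9.46 to 10.47 in FVB/N spleens, 8.26 to 9.56 in asymptomatic and 8.08 to 9.50 in lymphoma spleens. Their part in the Ciart and Per1 differences was not tested.

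The lymph nodes of the same mice did not follow. FVB/N mice 2 and 3 had Ciart levels of 6.37 and 6.44 in node, near the bottom of the range, and Per1 levels of 7.94 and 8.17. The highest nodes were those of FVB/N mouse 1, at 8.30 for Ciart and 9.15 for Per1, and asymptomatic mouse 1, at 8.10 and 9.42, the same 2 nodes that lacked neighbouring-organ transcripts. The other asymptomatic nodes lay at 6.24 to 6.79 and 7.90 to 8.32, and the lymphoma nodes at 6.85 to 7.34 and 7.46 to 8.26. No clock gene passed between asymptomatic and FVB/N nodes in limma, where 1.94% of all genes did. An unadjusted p under 0.05 was found for 0 of 9 and for 3186 of all 19938 genes. Without surrogate variables 0 were called, where 0.0652% of all genes were. Ciart and Per1 moved together over the 30 arrays (Pearson r = 0.87 after the mean of each state, batch and tissue was taken off), a description that rests largely on these few FVB/N and asymptomatic mouse 1 arrays, and in which spleen and node of 1 mouse are not independent.

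**Figure D4:**
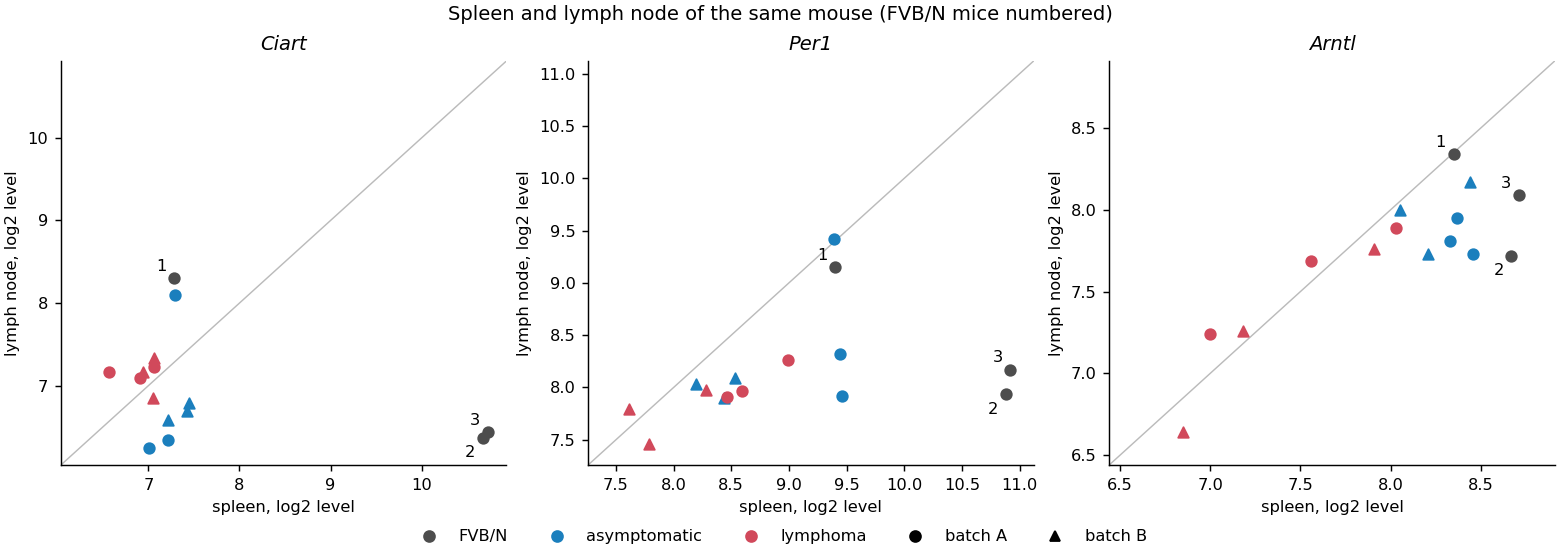
Log2 level of Ciart, Per1 and Arntl in the lymph node against the spleen of each of the 15 mice, coloured by state with circles for batch A and triangles for batch B; the line marks equal levels and FVB/N mice are numbered. FVB/N mice 2 and 3 lie far to the right for Ciart (spleen 10.67 and 10.73, node 6.37 and 6.44) and Per1, while Arntl levels of lymphoma mice fall near the line.

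Between spleen and node of FVB/N mice 1 of 9 clock genes passed, Per1, at 1.25 (SE 0.30, adjusted p = 0.0197), where 4.27% of all genes did and 2.13% were higher in spleen. Without surrogate variables 3 passed, Per1, Ciart and Nr1d1, where 4.56% of all genes did, and 3 passed with mouse as a random block. The Per1 call was lost without the same 2 spleens (0.15, adjusted p = 0.961), and without FVB/N mouse 2 or 3 alone (0.92 and 0.87; adjusted p = 0.137 and 0.207). Ciart had a mean of 9.56 in spleen and 7.04 in node (1.34, SE 0.62, adjusted p = 0.274; 2.52 without surrogate variables, adjusted p = 0.00805). In lymphoma mice limma called 0 of 9 between spleen and node, where 0.0552% of all genes passed. An unadjusted p under 0.05 was found for 0 of 9 and for 1661 of all 19938 genes. Without surrogate variables 0 were called (0.00502% of all genes). The fitted differences of the 9 genes there ran from -0.21 for Ciart to 0.35 for Per1. Between lymphoma and FVB/N nodes 1 of 9 passed, Dbp, where 16.6% of all genes did and 7.98% fell; without surrogate variables Per3 (-0.70, adjusted p = 0.00441), Nr1d1 (-1.11, adjusted p = 0.0255) and Nr1d2 (-0.99, adjusted p = 0.00294) passed too, where 20.6% of all genes passed and 12% fell, and 4 passed with mouse as a random block.

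Genes that work beside the 9 were taken from a list of clock partners and outputs, of which 27 were measured. Between lymphoma and asymptomatic mice 7 rose and 4 fell in spleen, and 10 rose and 3 fell in node. Over all genes 8.58% rose and 7.25% fell in spleen, and 11.6% rose and 12.5% fell in node. Arntl2, a relative of Arntl that can also pair with CLOCK, rose from 5.68 to 6.06 (median 5.80) in asymptomatic spleens to 7.22 to 7.75 (median 7.45) in lymphoma spleens, and from 5.56 to 5.95 to 7.18 to 7.75 in node. The groups did not overlap in either organ, and the fitted differences were 1.78 (SE 0.15, adjusted p = 1.52e-08) and 2.00 (SE 0.16, adjusted p = 6.8e-09). Wee1, a clock-controlled kinase that holds cells before mitosis, rose by 1.26 in spleen and 1.79 in node (adjusted p = 3.35e-06 and 6.03e-08), and Tipin, which acts with Timeless at replication forks, by 0.87 and 1.50 (adjusted p = 5e-05 and 7.59e-08). Wdr5, a chromatin adaptor that binds PER1, rose by 0.42 and 0.50 (adjusted p = 0.00126 and 0.000383).

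Rora, the receptor that activates Arntl at the sites where REV-ERB proteins repress it, fell. It was 7.30 to 7.67 in asymptomatic and 5.48 to 6.60 in lymphoma spleens, and 7.49 to 7.80 against 5.61 to 6.65 in node, without overlap (-1.10, SE 0.16, adjusted p = 1.95e-05; -1.21, SE 0.17, adjusted p = 1.44e-05). Rora is also high in T cells, and the T lineage list fell in the same mice as given above. Hlf, a D-box factor related to Dbp, fell by 0.38 in spleen (adjusted p = 0.0273) and 0.66 in node (adjusted p = 0.000506), the first lost without surrogate variables (-0.22, adjusted p = 0.28). Tef, the third factor of that family, did not pass (-0.03 in spleen, adjusted p = 0.911; -0.10 in node, adjusted p = 0.687). Fbxl21, a ligase subunit for CRY proteins, fell by 0.60 in spleen and 0.46 in node (adjusted p = 0.000642 and 0.00954). Cry1 and Cry2 in spleen gave -0.09 and -0.11 (adjusted p = 0.764 and 0.61), and in node -0.24 and -0.29 (adjusted p = 0.318 and 0.134). Nfil3 gave -0.08 and -0.25 (adjusted p = 0.848 and 0.473). Bhlhe40, an E-box repressor, gave -0.72 and -0.94 (adjusted p = 0.183 and 0.0843), with no overlap between the groups in either organ. Its relative Bhlhe41 gave 1.25 in spleen (adjusted p = 0.0834) and rose in node by 2.15 (SE 0.53, adjusted p = 0.00434) but by 0.83 without surrogate variables (adjusted p = 0.222). Of 13 glucocorticoid response genes, 5 rose and none fell in lymphoma spleens (8.58% and 7.25% of all genes), among them Mt1 (1.39, adjusted p = 0.000432), Sgk1 (0.84, adjusted p = 0.000539) and Fkbp5 (0.82, adjusted p = 0.0024). In node (11.6% and 12.5% of all genes) 1 rose, Lcn2 (3.41, adjusted p = 0.000648), and 1 fell, Nfkbia (-0.55, adjusted p = 0.0217). Of 12 neutrophil genes 8 rose and 0 fell in the same nodes, and their part in the Lcn2 difference was not tested.

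The batches were compared because hours of collection, which set clock gene levels, could differ between them; those hours were not analysed here. In spleen 1 of 9 clock genes passed, Per1, where 21.8% of all genes did and 15.5% were lower in batch B. Per1 was 9.39, 9.44 and 9.46 in asymptomatic spleens of batch A and 8.19, 8.44 and 8.53 in those of batch B, and 8.99, 8.46 and 8.59 against 7.61, 8.28 and 7.79 with lymphoma. Batch B was lower in both states with no overlap (mean over the states -0.92, SE 0.25, adjusted p = 0.00974 in limma; -1.04 and -0.79 in the states alone, adjusted p = 0.0559 and 0.16). With alike spleens averaged the adjusted p was 0.0708. In node 1 of 9 passed, Dbp, higher in batch B by 0.40 (SE 0.14, adjusted p = 0.0369), where 21.9% of all genes passed and 7.7% were higher. That call was lost without any one of FVB/N mouse 3, asymptomatic mice 1, 2, 4 and 5 and lymphoma mice 1, 3, 5 and 6 (0.32 to 0.42, adjusted p from 0.0505 to 0.124).

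Of the 27 partners, 1 was higher and 10 lower in batch B in spleen, and 4 higher and 7 lower in node. Over all genes 6.35% were higher and 15.5% lower in spleen, and 7.7% higher and 14.2% lower in node. Cry1, which represses the CLOCK and BMAL1 pair and peaks later in the cycle than the Per genes, was higher in batch B in spleen (0.78, SE 0.14, adjusted p = 0.000164) and in node (0.53, SE 0.14, adjusted p = 0.00645). Nfil3, which competes with DBP for D-boxes, was lower in both (-0.67, adjusted p = 0.00143; -0.64, adjusted p = 0.00248). Noct, a rhythmic enzyme named for its night peak, was lower by 0.62 and 0.61 (adjusted p = 0.000859 and 0.00112). The kinase genes Csnk1d (-0.51 and -0.50) and Csnk2a1 (-0.67 and -0.66), and Cipc (-0.48 and -0.43), an inhibitor of CLOCK, were lower in both organs, with adjusted p at most 0.000551. Immediate early genes moved with the batch too, 11 of 15 lower in spleen and 7 of 15 in node, among them Jun (-1.68 and -1.58) and Dusp1 (-1.53 in spleen). The part of these differences in the clock genes' values was not tested.

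A difference in hour between mice would be shared by the organs of 1 animal, so the variation among mice of 1 state and batch that spleen and node share was tested with a moderated F test in limma (10 degrees of freedom). It called 0 of 9 clock genes, where 2.93% of all genes passed at the adjusted threshold. The share of all genes with an unadjusted p under 0.05 is not given, and 4 of the 9 clock genes had one. They were Arntl (F = 5.82, adjusted p = 0.0539), Nr1d2 (F = 4.66, adjusted p = 0.0967), Clock (F = 3.07, adjusted p = 0.227) and Per3 (F = 2.70, adjusted p = 0.282). Ciart (F = 0.30) and Per1 (F = 0.50) were the lowest of the 9. Arntl passed without FVB/N mouse 1 or 2, with the 3 organ lists as terms, or with the dimmest genes (a share of 0.25) left out. Among the partners Bhlhe41 passed (F = 15.10, adjusted p = 0.00215).

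The genes whose pattern was most like that of Dbp and Arntl are given by Pearson r over the 30 arrays, after the mean of each state, batch and tissue was taken off; spleen and node of a mouse are not independent points. For Dbp the highest were Tnfsf10 (0.83), a death ligand of the TNF family, Mr1 (0.80), Ahcyl2 (0.80), Acot2 (0.79) and Mtln (0.79). The lowest were Rangrf (-0.81), Tspo2 (-0.77), E2f8 (-0.77), Cpn1 (-0.77) and Ube2c (-0.75). For Arntl the highest were Icosl (0.87), a ligand for the T cell receptor ICOS, Hbp1 (0.85), Nckipsd (0.83), Abhd2 (0.82) and Btg1 (0.82), and the lowest Capsl (-0.83), Pbk (-0.82), Tmtc4 (-0.78), Pnmal1 (-0.77) and Csgalnact1 (-0.77). E2f8 and Ube2c, at the low end for Dbp, and Pbk, at the low end for Arntl, are genes of the cell division cycle.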

How the data were processed

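RNA of whole organs was hybridised to Affymetrix Mouse Gene 1.0 ST arrays. Per the series' design text and the labels' protocols, the authors normalized the probes with frozen robust multiarray analysis (fRMA); the deposited table holds log2 values. Of 35556 probe sets used, 21789 had 1 gene symbol, 1621 several and 12146 none listed. The highest-mean probe set of each of 19938 genes was kept. All genes were fitted with limma 3.58.1 (R 4.3.3) on 6 groups of state and tissue plus 6 surrogate variables (iteratively re-weighted, number from 20 residual permutations), as the design text's methods do, with Benjamini-Hochberg adjustment and a threshold of 0.05. Batches and mice were tested in cells of state, batch and tissue. The fits were run on simulated data with independent noise between arrays, and the outcome is not given. Those runs say nothing on nearly alike spleens or on the pairing of organs in the main fit. Array number limits precision. In the main fit, p-values measure the spread between arrays that is left after the surrogate variables. That fit counts spleen and node of 1 mouse as independent. The genes and lists were chosen with earlier results of these data known. Clock genes were all named; of partner, glucocorticoid and immediate early genes, those with the smallest adjusted p, plus the main partners; of like genes, the 5 highest and lowest.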

Additional observations from a re-analysis of the deposited data

Results flagged for a closer look

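In 36 groups of 6 arrays (9 clock genes, 2 Tg26 states, 2 tissues) the highest and lowest array were checked for lying far from the others, and 3 did; chance flags about 1 group in 20. Ciart in the spleen of lymphoma mouse 3, at 6.57, lay below the other 5, which ran from 6.91 to 7.06. In the lymph node of asymptomatic mouse 1, Ciart at 8.10 lay above the other 5, at 6.24 to 6.79, and Per1 at 9.42 above 7.90 to 8.32. That node was the only asymptomatic one without neighbouring-organ transcripts.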

How the results depend on the processing

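Shares of all genes that passed are not given in this section, so no count in it is set against a background. Counts of clock genes called, of 9, moved with the setting as follows. With no surrogate variables they were 4 (lymphoma minus asymptomatic, spleen), 5 (same, node), 0 (asymptomatic minus FVB/N, spleen), 7 and 4 (lymphoma minus FVB/N, spleen and node), 1 (difference between tissues), and 3 and 1 (spleen minus node, FVB/N and asymptomatic). With batch as a term instead they were 4, 6 and 0 for the first 3, 4 for lymphoma minus FVB/N in node, 1 between tissues and 3 in FVB/N. With batch and 3 organ lists they were 6, 1, 1 and, for spleen minus node in asymptomatic mice, 0. With mouse as a random replicate block and batch (correlation 0.13) they were 4, 6, 0, 4 (lymphoma minus FVB/N, node), 2 between tissues and 3 in FVB/N. Spleen and node of a mouse come from 1 animal. Batch A alone gave 2, 1, 0, 3 (lymphoma minus FVB/N, node) and 0 (asymptomatic tissues), and batch B alone 6 in node and 1 between tissues. The fits within a batch had no surrogate variables. Quantile normalization gave 2 and 1 for lymphoma minus asymptomatic; leaving out the dimmest genes (a share of 0.25) gave 4 in spleen, 8 for lymphoma minus FVB/N in spleen and 1 between mice; the mean of a gene's probe sets gave 2 in spleen. The next settings were chosen after seeing the data. Alike spleens averaged gave 1 (lymphoma minus asymptomatic, node), 0 and 1 (asymptomatic and lymphoma minus FVB/N, spleen), 0 (FVB/N tissues) and 0 in each batch comparison. Without the spleens of FVB/N mice 2 and 3 the counts were 0 and 0 against FVB/N spleens, 2 for lymphoma minus FVB/N in node and 0 for FVB/N tissues, and 0, 0, 4 and 0 with no surrogate variables as well. Without the 8 nodes with organ transcripts, with or without surrogate variables, they were 1 for lymphoma minus asymptomatic in node and 0 for spleen minus node in FVB/N and in asymptomatic mice. The remaining settings were not chosen in this way. The batch counts were 0 in either state alone and, with the organ lists as terms, 2 in spleen and 0 in node; the mouse test then gave 1. Leaving out each mouse in turn gave 1 to 4 (lymphoma minus asymptomatic, spleen), 1 to 3 (node), 0 to 3 (asymptomatic minus FVB/N, spleen), 1 to 7 (lymphoma minus FVB/N, spleen), 0 to 2 for spleen minus node in FVB/N and in asymptomatic mice, 1 to 2 and 0 to 1 for the batches and 0 to 1 between mice. Signed differences of single genes numbered 2835 under the alternatives, and 235 had the opposite sign from the reported value. In 232 of these the gene passed in neither fit. The other 3 were of Ciart: batch B alone gave 0.43 for lymphoma minus asymptomatic in node (adjusted p = 0.0486) and 0.68 for spleen minus node in asymptomatic mice (adjusted p = 0.0121), and leaving out 2 FVB/N spleens gave 0.02. Without surrogate variables Ciart also changed sign in node, to 0.35 for lymphoma minus asymptomatic and 0.10 for lymphoma minus FVB/N. The causes were not tested, beyond the fewer arrays of the settings that leave arrays out. With the mouse test included, 3015 values were compared; 114 no longer passed and 121 newly passed.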
